A study of Saccharomyces cerevisiae with 30 samples.

Results

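These data compare polysomal with total mRNA in yeast cells homozygous for *rme1-10*, 6 RNA-seq libraries out of the 18 RNA-seq libraries and 30 samples of the series. Each count table carries a strain number and a letter, and the comparison takes the 3 libraries with the number of the *rme1-10* strain and the letter p (polysomal) against the 3 with the same number and the letter t (total). The study's strain list gives that number to a diploid of the SK288C background, an S288C strain with alleles of the high-efficiency strain SK1 at other loci (*TAO3* and *MKT1*). In it *IME4* was intact on both chromosomes and both copies of *RME1* carried *rme1-10*. Both fractions came from cells 5 h after their shift to SPO media, in which potassium acetate is the carbon source and diploids enter meiosis. Lysates were spread on a sucrose gradient, the polysome fractions were pooled, and poly(A) selection was applied to that pool and to the lysate kept back before the gradient. The labels call the samples replicates by number only, so p-values here measure the spread between these libraries. Where WT cells are named, they are the strain of the same experiment that was *IME4*/*IME4* with *rme1-S288C* on both chromosomes, in the same medium for the same time, again taken by strain number and letter.

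The deposited titles disagree with these marks. The 3 libraries of the *rme1-10* number marked p are titled *rme1-10* input and the 3 marked t are titled *ime4-cat* input (*ime4-cat* is the catalytic mutant of *IME4*), so the titles split the 6 libraries into the same sets of 3 under other names. In the WT strain the libraries marked p are titled as WT polysome, while those marked t are titled *rme1-10* polysome. The values of *LSR1* and *HAC1* went with the letters. *LSR1*, the U2 RNA of the spliceosome, which works in the nucleus, lay between 193.8 and 491.7 CPM (after TMM scaling over all 18 libraries; CPM sets the count of a gene against all counts on genes of its library) in the 9 libraries marked p and between 849 and 3112 CPM in the 9 marked t. The sum of the 89 noncoding RNAs used as a check, *LSR1* among them, overlapped between the letters. It was 1448 to 4645 CPM in the p libraries and 2713 to 13700 CPM in the t libraries. Of these RNAs, 26 of the SNR series had enough counts to be tested in *rme1-10* cells. Their log2 fold changes of p over t were above 0 in 16 and below 0 in 10. *SNR19*, another RNA of the spliceosome, was at 0.11 and so did not go with the letters as *LSR1* did. *HAC1* lay between 30.8 and 60.6 CPM in the p libraries and between 133 and 181 CPM in the t libraries. It was not among the RNAs set as a check. In *rme1-10* cells it had the smallest p-value of edgeR's test between the letters, so there it is no separate check of them. On the log2 scale the *rme1-10* p libraries had a mean correlation across genes of 0.969 with the WT p libraries and 0.952 with the WT t libraries. The *rme1-10* t libraries had 0.950 with WT p and 0.978 with WT t. Read by the titles alone, both sets would be input RNA of different genotypes, so the words polysomal and total rest on the letters. Of 8 early meiotic genes used to check the cells (*IME1*, *IME2*, *IME4*, *DMC1*, *HOP1*, *SPO11*, *REC8* and *ZIP1*), none was at 0 in any library. Their sum was 3918 to 4274 CPM in the *rme1-10* p libraries and 4267 to 4730 CPM in the *rme1-10* t libraries. In the 6 libraries numbered as *ime4-cat* that sum was 1508 to 3521 CPM, and in the 6 numbered as WT it was 4173 to 5305 CPM.

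**Figure D1:**
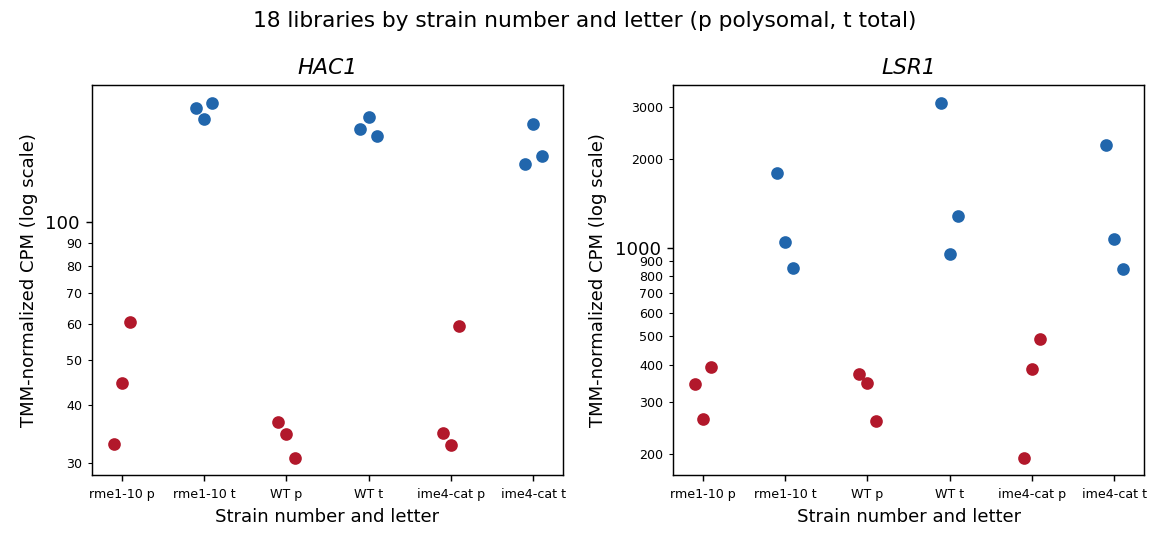
*HAC1* (left) and *LSR1* (right) in each of the 18 libraries by strain number and letter, where each number is shown as its genotype in the strain list, as TMM-normalized CPM on a log axis, one point per library (p in red, t in blue). The points marked p lie at 60.6 CPM or less for *HAC1* and at 491.7 CPM or less for *LSR1*, below those marked t in each strain.

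An mRNA in the polysome fraction carries several ribosomes. The ratio of polysomal to total level of a gene therefore compares how much of its mRNA lies in that fraction with that of the average mRNA. An mRNA with a single ribosome lies outside the polysome peaks, so a low ratio does not show that an mRNA was not translated. The ratio is relative: it does not measure how much of all mRNA sits on polysomes. *RME1* encodes a repressor of *IME1*, the master activator of meiosis. *IME4* encodes the methyltransferase that places N6-methyladenosine (m6A) in mRNA during meiosis, and *rme1-10* changes the adenosine that carries this mark in the untranslated region after the *RME1* stop codon. The site is shown because it is what sets these cells apart from WT. The *RME1* gene spans 582990 to 583892 of chromosome VII (R64, minus strand), and its adenosine lies in the 1 GGAC that a search of the 200 bases after the stop codon found. The strand of *RME1* at chrVII:582847-582875 reads as follows, with that adenosine in capitals and counted from 1 after the stop codon in A129T, the change of *rme1-10*:
*RME1* site: gcatgcaactatggAcacttgctatgtcg

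Counts on genes came to 807826, 1189124 and 650859 in polysomal replicates 1, 2 and 3, against 1494513, 1982079 and 6009889 in total replicates 1, 2 and 3. Depth therefore moved with the fraction. So did the share of entries set aside because a read aligned to more than 1 place, 80.8% to 92.5% in the polysomal and 57.5% to 73.2% in the total libraries, and the part of either in the results was not tested beyond the thinned libraries given below. The 89 nuclear and other noncoding RNAs used as a check summed to 1448 to 3433 CPM in the polysomal and 2713 to 6700 CPM in the total libraries. The highest sum was in total replicate 1. Polysomal replicate 1 and total replicate 1 stood somewhat apart from the other libraries of their fractions. Their ratio of chi-square to degrees of freedom against those was 3.29 to 5.90 and 6.52 to 8.86, while the remaining pairs had 2.18 and 1.83. The 28 genes of the mitochondrial genome could not be tested, and the 7 of them used as a check were at 0 in every library.

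A total of 5818 genes had enough counts to be tested with edgeR's quasi-likelihood test. At an adjusted p under 0.05 (Benjamini-Hochberg), 240 genes (4.13%) were higher and 273 (4.69%) were lower in polysomal than in total RNA, together 8.82%. In bulk RNA, fewer cells that express a gene and less RNA of it in each cell cannot be told apart, for either fraction. Most differences were small, with 90% of genes between a log2 fold change of -0.67 and 0.56 and a median of 0.00, and 17 of the higher and 73 of the lower genes passed 1 on the log2 scale in either direction. The 3 polysomal libraries lay above the 3 total ones in 14.6% of genes and below them in 16.7%. The balance of calls moved with the scaling: with upper quartile factors, which put the median of all genes at -0.05, 174 genes were higher and 345 lower. With every library thinned to the counts of the smallest one, 140 were higher and 174 lower. The counts also depended on which libraries entered. They were 54 higher and 40 lower without polysomal replicate 2, 28 and 46 without polysomal replicate 3, 39 and 66 without total replicate 2, and 41 and 81 without total replicate 3. Leaving out polysomal replicate 1 gave 306 higher and 235 lower, and leaving out total replicate 1 gave 357 and 374. A core of 34 genes, 15 higher and 19 lower, was called under each of 17 alternatives.

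**Figure D2:**
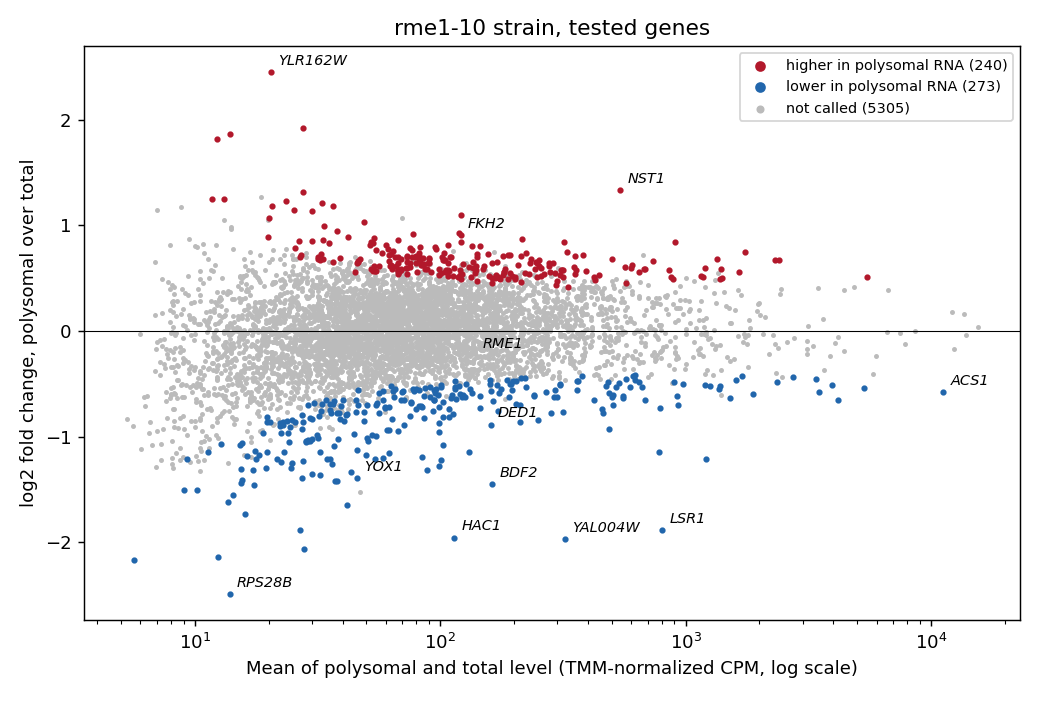
Log2 fold change of polysomal over total RNA against the mean level of each tested gene in *rme1-10* cells (TMM-normalized CPM, log axis), one point per gene, with the 240 genes called higher in red, the 273 called lower in blue and the rest in grey. *HAC1*, *LSR1* and *BDF2* stand below the cloud at levels of about 100 CPM or more and *NST1* stands above it, while *RME1* lies inside it.

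*HAC1*, which encodes the transcription factor of the unfolded protein response, had the smallest p-value of all genes tested and was lower in polysomal RNA. It is known for an intron that the spliceosome does not remove: the kinase and nuclease Ire1p cuts it out in the cytoplasm when unfolded proteins build up, and until then the intron pairs with the leader of the mRNA and holds back its translation. In the R64 assembly *HAC1* (YFL031W) lies on chromosome VI from 75179 to 76147 on the plus strand, with an intron of 252 bases from 75840 to 76091 that splits a coding region of 717 bases. Both edges of this intron are shown, since it is the known block to translation of this mRNA; capitals mark intron bases, at chrVI:75828-75851 and chrVI:76080-76103:
*HAC1* start of intron: ggcgtaatccagCCGTGATTACGA
*HAC1* end of intron: TTGTACTGTCCGaagcgcagtcag
*HAC1* had 34.1, 45.7 and 62.4 CPM in the polysomal libraries, against 180.7, 172.8 and 186.3 CPM in the total libraries. Each polysomal value was under the lowest total value by a wide margin. The log2 fold change was -1.96 (SE 0.18, adjusted p = 0.000145 in edgeR's test), and it lay between -2.15 and -1.77 under the 17 alternatives, called in each. The counts do not tell spliced from unspliced *HAC1* mRNA.

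Of 8 genes known for control by short reading frames in the leader or by an intron, 2 fell (25%, beside 4.69% of all genes) and none rose, with a median log2 fold change of -0.25 against 0.00 over all genes tested. The other one that fell was *GCN4*, the activator of amino acid synthesis genes, whose leader holds short upstream reading frames that keep ribosomes from its start codon when amino acids are plentiful. *GCN4* had 2101, 1874 and 1888 CPM in polysomal RNA, against 2804, 2674 and 2737 CPM in total RNA. Its groups did not overlap, and its log2 fold change was -0.49 (SE 0.12, adjusted p = 0.0266 by edgeR). It missed the threshold when any of polysomal replicates 2 and 3 and total replicates 2 and 3 was left out, with an adjusted p of up to 0.125 by edgeR. *CPA1*, a subunit of the enzyme that makes carbamoyl phosphate for arginine, with an arginine-sensing upstream frame, had a log2 fold change of 0.30 and did not pass (adjusted p = 0.128 by edgeR), and *YAP1*, a regulator of the oxidative stress response, was at -0.06 (adjusted p = 0.832 by edgeR).

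RNAs that are not translated were counted as well. *LSR1* had 356, 268 and 406 CPM in the polysomal libraries, against 1836, 1080 and 878 CPM in the total libraries, a log2 fold change of -1.89 (SE 0.24, adjusted p = 0.00167 by edgeR) that was called under each alternative. The total libraries spread widely around their mean, and the lowest of them was still more than any polysomal one. *SCR1*, the RNA of the signal recognition particle, which binds ribosomes, had 884, 364 and 949 CPM against 2617, 1461 and 1006 CPM. Its highest polysomal value was close to its lowest total value, and its log2 fold change of -1.22 (SE 0.33, adjusted p = 0.0379 by edgeR) was not called under 8 of 17 alternatives, such as without total replicate 1 or with the DESeq2 Wald test. In all, 2 of the 9 tested RNAs of this noncoding list fell (22.2%, beside 4.69% of all genes) and none rose, with a median of -0.57. The DESeq2 Wald test and limma-trend each called 1 of the 9 lower. Of 81 small RNA genes of the SNR series, which are mostly small nucleolar RNAs, 26 had enough counts. Among these 1 fell (*SNR30*, at -1.31) and 1 rose (*SNR46*, at 1.87), with a median of 0.24. That is 3.85% each way, beside 4.69% lower and 4.13% higher of all genes. *SNR30* lost its call in 6 alternatives and *SNR46* in 7. Mature RNAs of these kinds mostly lack poly(A) tails and the 2 fractions were selected separately; the part of that selection in these values was not tested.

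*RME1* mRNA did not pass the test between the fractions. It had 151.5, 118.5 and 113.9 CPM in polysomal RNA, against 174.2, 141.6 and 137.6 CPM in total RNA. The highest polysomal library lay within the range of the total ones. The means were 128 ± 20.5 CPM in polysomal and 151 ± 20.03 CPM in total RNA (SD, n = 3 each), a log2 fold change of -0.23 with a standard error of 0.16 (adjusted p = 0.368 by edgeR; exact two-sided permutation p = 0.3, where 3 against 3 cannot go below 0.1). The value lay between -0.35 and -0.12 under the alternatives and was called in none of them, which does not show that the fractions were equal. In the WT strain *RME1* was at -0.29 on the same scale, and the 2 strains differed by 0.07 (SE 0.22, unadjusted p = 0.737 by edgeR), *rme1-10* minus WT.

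Genes that decide on entry into meiosis gave a single call. Of 13 such genes 1 rose (7.69%, beside 4.13% of all genes) and none fell, and their median log2 fold change was 0.06. *IME1* had 904, 676 and 818 CPM in polysomal RNA, against 721, 766 and 808 CPM in total RNA, and its values overlapped. *IME2*, the protein kinase that acts after *IME1*, had a log2 fold change of -0.22. *IME4* had 201, 175 and 167 CPM against 135, 192 and 171 CPM (log2 fold change 0.12), and an annotated gene overlaps it, so its counts are uncertain without strand. *MUM2* and *SLZ1*, the partners of Ime4p in the methyltransferase complex, were at -0.10 and -0.07, and *PHO92*, which encodes a protein that binds m6A, was at 0.07. *RIM4*, an RNA-binding protein that delays translation of late meiotic mRNAs, was at 0.11, and *NDT80*, the activator of the middle genes, at -0.15. Their adjusted p-values ran from 0.302 to 0.817 in edgeR's test. The exception was *SUM1*, the repressor of middle sporulation genes, with 190, 138 and 150 CPM in polysomal RNA, against 77.6, 117 and 115 CPM in total RNA. Its polysomal values lay above its total values, but the log2 fold change of 0.60 (SE 0.18, adjusted p = 0.0476 by edgeR) was lost under 13 of 17 alternatives and when any 1 of the 6 libraries was left out. *ACT1* (actin) was at -0.04, and *PGK1*, a glycolytic enzyme, at -0.41 (adjusted p = 0.0601 by edgeR).

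**Figure D3:**
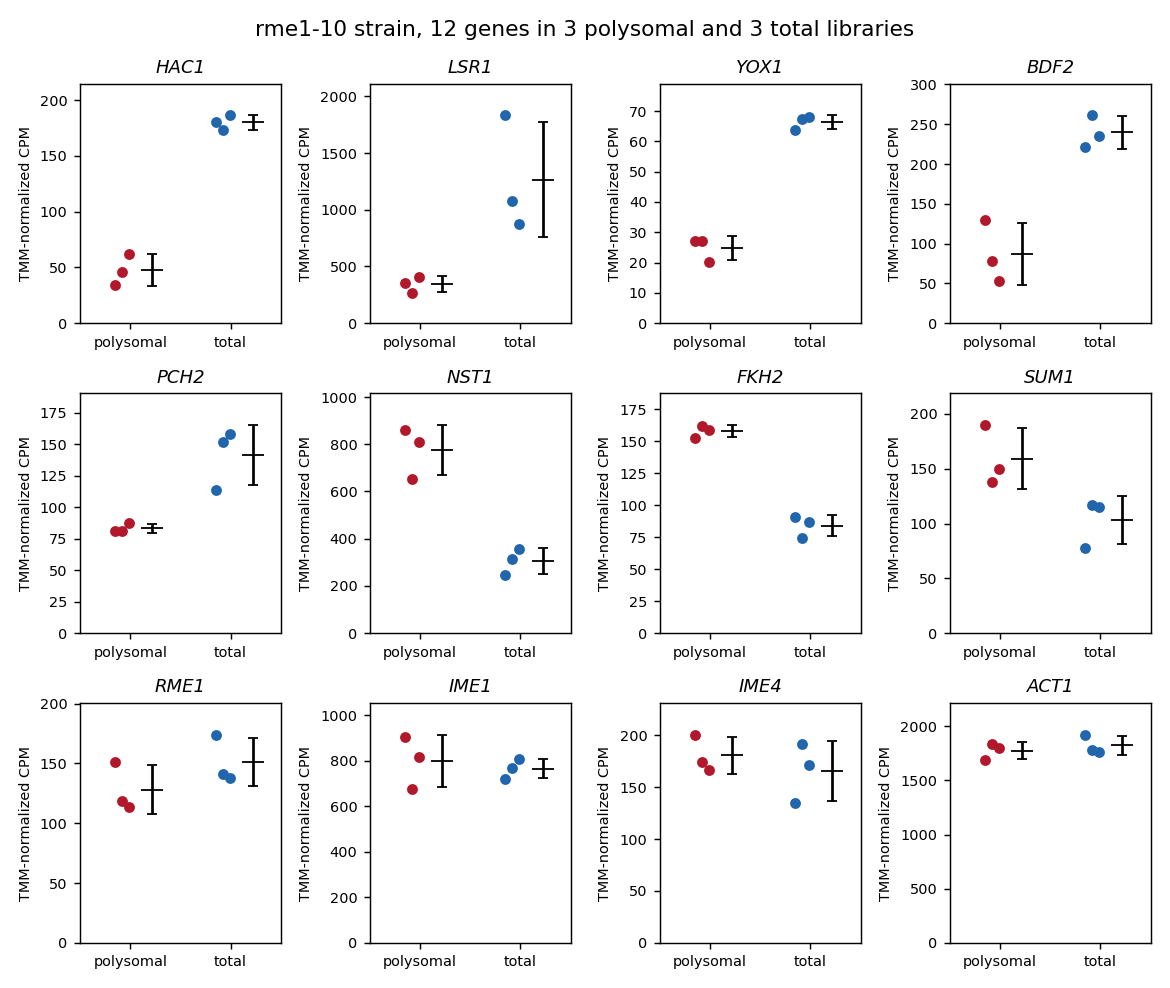
TMM-normalized CPM of 12 genes in *rme1-10* cells, with polysomal libraries in red on the left and total libraries in blue on the right of each panel, one point per library, and a bar for the mean ± SD (n = 3). *HAC1*, *LSR1*, *YOX1*, *BDF2* and *PCH2* are lower and *NST1*, *FKH2* and *SUM1* higher in polysomal RNA without overlap, while *RME1*, *IME1*, *IME4* and *ACT1* overlap.

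Among 32 genes of early meiotic prophase, which pair, synapse and recombine homologous chromosomes, 8 fell and none rose. This is 25% of the list, beside 4.69% of all genes tested that fell, and the list had a median log2 fold change of -0.15. At an unadjusted p under 0.05 edgeR had 10 members lower and 3 higher, beside 1549 of all 5818 genes in either direction. The DESeq2 Wald test and limma-trend each called 6 lower and 0 higher. *PCH2*, the ATPase that remodels Hop1p on chromosome axes, had 81.0, 80.8 and 87.4 CPM in polysomal RNA, against 114, 152 and 158 CPM in total RNA (log2 fold change -0.79, standard error 0.16, adjusted p = 0.0142 by edgeR). *HOP1*, a protein of the chromosome axis, had 420, 349 and 442 CPM against 497, 600 and 585 CPM (-0.48). *NDJ1* (-0.66) and *CSM4* (-0.76), which act in telomere-led chromosome movement, fell, as did *MEI4* (-0.68) and *REC114* (-0.64), needed to make double-strand breaks, and *SPO16* (-0.52) and *MSH5* (-0.48), which act in crossover formation. In each of these 8, which were picked by the test on the same libraries, the polysomal libraries lay below the total ones. Over the 32 genes they lay below in 10 and above in 5, beside 16.7% below and 14.6% above of all genes. The most abundant members did not pass: *DMC1*, the strand exchange protein, was at -0.12, *REC8*, the meiotic cohesin, at -0.27, and *SPO22*, of the crossover proteins, at 0.20. The number called was 4 without polysomal replicate 1, none without polysomal replicate 2, 2 without polysomal replicate 3, 8 without total replicate 1, none without total replicate 2 and 1 without total replicate 3. In the WT strain, with its own 6 libraries, 13 of the 32 fell and 2 rose, with a median of -0.28. More genes were called in WT, where 11.5% of all genes tested fell and 12.5% rose. Of 19 genes of middle sporulation 1 fell (5.26%, beside 4.69%), the septin *SPR28* (-0.70), and none rose, at a median of -0.08. That call held without total replicate 1 and was lost without any other of the 6 libraries.

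Glycolysis held the largest share of genes that fell among the 21 lists. Of its 17 genes 9 fell (52.9%, beside 4.69% of all genes) and none rose, 16 of 17 were below 0, and the median log2 fold change was -0.49. At an unadjusted p under 0.05 edgeR had 12 lower and 0 higher, beside 1549 of all 5818 genes in either direction. The DESeq2 Wald test called 11 lower and limma-trend 8, and neither called any higher. The genes that fell were *PFK2* (-0.78) and *PFK1* (-0.53), the subunits of phosphofructokinase, *PGI1* (-0.73), which interconverts glucose and fructose phosphates, the hexose kinases *HXK1* (-0.65) and *GLK1* (-0.49), *TDH1* (-0.63), a glyceraldehyde-phosphate dehydrogenase, the enolases *ENO1* (-0.60) and *ENO2* (-0.43), and *CDC19* (-0.58), the pyruvate kinase. *CDC19* had 2670, 2938 and 2793 CPM in polysomal RNA, against 3949, 4377 and 4206 CPM in total RNA, with replicates close together in each fraction (adjusted p = 0.0147 by edgeR). *PGI1* had 564, 544 and 673 CPM against 849, 1111 and 987 CPM (adjusted p = 0.0123 by edgeR). Of the 3 most abundant members, none of which passed, *TDH3* was at -0.04 and *FBA1* at -0.02. *PGK1* was at -0.41, with its polysomal libraries below its total ones, and was called under 3 of 17 alternatives. The number called was 7 to 11 under the other scalings, tests, filters and fits it was counted for, and was 7, 3 and 2 without polysomal replicates 1, 2 and 3, and 10, 1 and 4 without total replicates 1, 2 and 3. In the WT strain 8 of the 17 fell and none rose, with a median of -0.34, beside 11.5% lower of all genes tested in WT.

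Acetate, the carbon source of SPO media, is used through acetyl-CoA. *ACS1*, the acetyl-CoA synthetase and one of the most abundant mRNAs here, fell to a mean of 8980 CPM in polysomal RNA, against 13430 CPM in total RNA (log2 fold change -0.58, adjusted p = 0.0164 by edgeR), and was the one called of 17 genes of acetate use, the glyoxylate cycle and gluconeogenesis (5.88% lower, beside 4.69%, with a median of -0.15). *ADY2*, the acetate carrier, and *ALD4*, an aldehyde dehydrogenase, were at 0.04 and -0.01. Of 16 genes of the TCA cycle 2 fell (12.5%, beside 4.69%), *MDH1* (-0.53) and *KGD2* (-0.45), and none rose. The 37 nuclear genes of the respiratory chain and ATP synthase had 4 lower (10.8%, beside 4.69%), 2 higher (5.41%, beside 4.13%) and a median of 0.08. *ATP2* (-0.70) and *ATP1* (-0.59), both of the ATP synthase head, fell with *ATP17* (-0.61) and *CYT1* (-0.51), while *ATP7* (0.55), of the stalk, and *STF2* (0.62), linked to the ATP synthase inhibitor, rose. *ATP2* had 416, 362 and 382 CPM in polysomal RNA, against 663, 621 and 602 CPM in total RNA (adjusted p = 0.00824 by edgeR), and lost its call in 1 alternative, without polysomal replicate 3 (adjusted p = 0.0520 by edgeR). Neither acetate nor TCA cycle genes were called without polysomal replicate 2 or 3 or total replicate 2 or 3, and the respiratory list then held 1 or 0 calls. Without total replicate 1 it held 7 higher and 5 lower, where 731 of all 5809 genes were called, 48.8% of them higher.

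**Figure D4:**
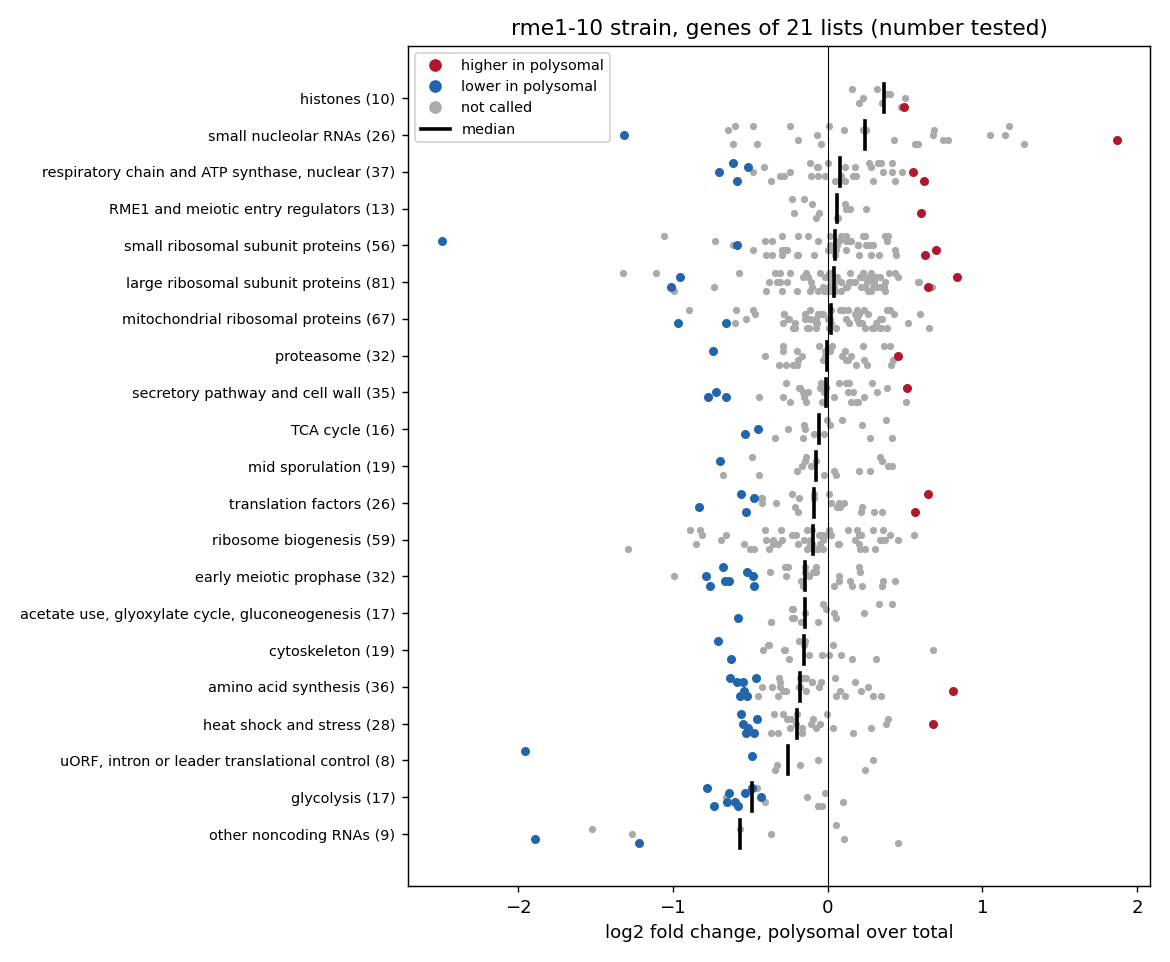
Log2 fold change of polysomal over total RNA in *rme1-10* cells for the tested members of 21 gene lists, 1 point per gene, in red where called higher, blue where called lower and grey where not called, with a black bar at the median of each list and the number tested in brackets. Glycolysis has the lowest median among the protein-coding lists, -0.49, and histones the highest, 0.36.

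Of 28 genes of protein folding and stress 6 fell (21.4%, beside 4.69% of all genes) and 1 rose (3.57%, beside 4.13%), with a median of -0.20. The DESeq2 Wald test also called 6 lower and 1 higher, and limma-trend called 3 lower and 0 higher. Those that fell were the chaperones *HSC82* (-0.51), *SSA2* (-0.56), *SSE1* (-0.55) and *HSP104* (-0.46), and *TPS2* (-0.48) and *GSY2* (-0.52), of trehalose and glycogen synthesis. *HSP10* (0.68), the partner of the mitochondrial chaperonin, rose, although its groups overlapped. The most abundant stress mRNAs, *HSP26*, *SSA3* and *HSP12*, were at 0.16, -0.17 and 0.00 and did not pass. Among 36 genes of amino acid synthesis 7 fell (19.4%, beside 4.69%) and 1 rose (2.78%, beside 4.13%), at a median of -0.18. *ILV5* (-0.63) and *LEU1* (-0.54), of branched-chain synthesis, and *GLN1* (-0.52), glutamine synthetase, fell, with *TRP3*, *SER3*, *MET3* and *MET6* between -0.58 and -0.46. *ARG3*, ornithine carbamoyltransferase of arginine synthesis, rose. It had 137, 126 and 150 CPM in polysomal RNA, against 82.2, 68.5 and 82.1 CPM in total RNA (log2 fold change 0.81, standard error 0.14, adjusted p = 0.00824 by edgeR), and it was called under each of the 17 alternatives. No fall of either group was called without polysomal replicate 3, total replicate 2 or total replicate 3, and 1 stress gene and no amino acid gene fell without polysomal replicate 2.

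The 10 histone genes stood on the other side of 0, at log2 fold changes of 0.15 to 0.50 and a median of 0.36. Of them 1 passed (10%, beside 4.13% higher of all genes), *HHF1*, a histone H4 gene. It had 889, 1182 and 1035 CPM in polysomal RNA, against 824, 677 and 709 CPM in total RNA (log2 fold change 0.49, adjusted p = 0.0438 by edgeR). *HTA1* and *HTB1*, for histones H2A and H2B, were at 0.47 and 0.50 and just missed the threshold (adjusted p = 0.0756 and 0.0630 by edgeR). The groups of *HTB1* overlapped. At an unadjusted p under 0.05 edgeR had 6 higher and 0 lower, beside 1549 of all 5818 genes in either direction. The DESeq2 Wald test called 2 higher and limma-trend 0, and neither called any lower. The count by edgeR was 4 without polysomal replicate 1, 5 without total replicate 1 and 0 without any 1 of the others. Over all genes, 541 of 5882 were called without polysomal replicate 1, 56.6% of them higher. Without total replicate 1, 731 of 5809 were called, 48.8% of them higher. In the WT strain 7 of the 10 rose, with a median of 0.62, beside 12.5% higher of all genes tested in WT.

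Of the 56 genes for proteins of the small ribosomal subunit 2 rose and 2 fell (3.57% each way), and of the 81 for the large subunit 2 rose and 2 fell (2.47% each way), beside 4.13% higher and 4.69% lower of all genes. The medians were 0.05 and 0.04. Many of these genes come in near-identical pairs, and reads that fit both copies are missing from the counts. *RPS28B* had 2.35, 5.27 and 4.68 CPM in polysomal RNA, against 27.6, 18.4 and 25.01 CPM in total RNA, the steepest fall among the ribosomal protein genes (log2 fold change -2.49, standard error 0.37, adjusted p = 0.00369 by edgeR). Its polysomal libraries held few reads, and it was called in each alternative that tested it. Its mRNA is known for a stem-loop in its untranslated end through which the protein lowers its own mRNA. *RPL39* fell to 32.0 ± 5.62 CPM, against 68.8 ± 27.5 CPM in total RNA (SD, n = 3 each), with *RPL43A* (-0.95) and *RPS30A* (-0.59), while *RPP1B* (0.84), *RPS22B* (0.70), *RPL42A* (0.64) and *RPS15* (0.63) rose. Without total replicate 1 the large subunit list had 12 higher and 2 lower, where 731 of all 5809 genes were called, 48.8% of them higher. Without polysomal replicate 2 or 3 or total replicate 2 or 3 neither ribosomal list had a gene higher. Of 26 translation factors 4 fell (15.4%, beside 4.69%) and 2 rose (7.69%, beside 4.13%), and the DESeq2 Wald test and limma-trend each called 1 lower and 2 higher. Those that fell by edgeR were *NIP1* (-0.83), of the initiation factor eIF3, *TIF5* (-0.56), eIF5, *YEF3* (-0.53), the fungal elongation factor 3, and *GCD11* (-0.48), of eIF2. *HCR1* (0.65), an eIF3-associated factor, and *HYP2* (0.56), eIF5A, rose. *HYP2* had 1576, 2327 and 2018 CPM in polysomal RNA, against 1360, 1251 and 1401 CPM in total RNA. None of these 4 falls was called without polysomal replicate 2 or 3 or total replicate 2 or 3, and at most 1 of the 2 rises was. Of 59 genes of ribosome biogenesis 0 passed in either direction in edgeR's test, and their median was -0.10. At an unadjusted p under 0.05, 2 were higher and 7 lower, beside 1549 of all 5818 genes in either direction. The DESeq2 Wald test called 0 and limma-trend 1, lower. They held 2 calls, both lower, without total replicate 1 and 1 without polysomal replicate 1. *UTP20*, one of the 3 most abundant, was at 0.56 (adjusted p = 0.0690 by edgeR). Of 67 mitochondrial ribosomal protein genes 2 fell (2.99%, beside 4.69% of all genes), *MRPL33* (-0.97) and *RSM10* (-0.65), and none rose. These were lost without polysomal replicate 2 or 3 or total replicate 2 or 3.

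Protein breakdown, secretion and the cytoskeleton each held a few calls, where 4.13% of all genes were higher and 4.69% lower. In that order the share higher was 3.12%, 2.86% and 0%, and the share lower was 3.12%, 8.57% and 10.5%. Of 32 proteasome genes *RPN1* (-0.74), a subunit of the regulatory particle, fell and *PRE2* (0.46), a catalytic core subunit, rose, at a median of 0.00. Of 35 genes of the secretory pathway and cell wall, *CCW12* (-0.77), a mannoprotein of the wall, *PMA1* (-0.72), the proton pump of the plasma membrane, and *PRB1* (-0.66), a vacuolar protease, fell, and *SEC62* (0.51), of the translocation pore, rose. Of 19 cytoskeleton genes the septin *CDC3* (-0.71) and the actin bundler *SAC6* (-0.62) fell. Without polysomal replicate 2 or 3 or total replicate 2 or 3, these 3 lists together held at most 1 call.

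Beyond the lists, the largest increases and decreases by the naming rule included many IDs that the RefSeq annotation used here does not hold, which are named without a role. Such IDs were 294 of the 5818 tested (5.05%) and 58 of the 513 called (11.3%). Of the 12 largest increases they were *YIL030W-A*, *YER088W-B*, *YDR271C*, *YML090W*, *YIR023C-A*, *YOL099C*, *YDR467C* and *YGL072C*, at 0.92 to 1.31, and of the 12 largest decreases *YOR041C*, *YAL004W*, *YPR160C-A*, *YPL185W* and *YDL023C*, at -2.06 to -1.39.

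*NST1*, a gene linked to tolerance of salt, was among the largest increases. It had 861, 655 and 812 CPM in polysomal RNA, against 245, 314 and 356 CPM in total RNA. The lowest polysomal value was well above the highest total one, and the log2 fold change was 1.34 (SE 0.16, adjusted p = 0.00167 by edgeR), called under each alternative. *RRT15* stood at 22.3, 26.3 and 82.7 CPM in polysomal RNA, against 14.5, 10.2 and 9.23 CPM in total RNA. Polysomal replicate 3 carried much of its log2 fold change of 1.92, which was lost without that library or total replicate 3 (adjusted p of up to 0.0654 by edgeR). *RRT15* lies 937 bases after the last 5S ribosomal RNA gene of the ribosomal DNA on chromosome XII, and its neighbour *YLR162W*, 104 bases after it, had 37.6, 17.6 and 46.8 CPM against 9.86, 6.65 and 4.03 CPM (log2 fold change 2.45). The share of multiply aligned reads was also highest in polysomal replicate 3, at 92.5%, and its part in these values was not tested. *IRC10* (0.99) and *YKL106C-A* (0.95) complete the annotated increases of the rule.

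Several genes outside the naming rule were chosen after their values were seen, because they were called under all 17 alternatives. *FKH2*, a forkhead transcription factor of the cell cycle, had 153, 162 and 159 CPM in polysomal RNA, against 90.7, 74.7 and 87.0 CPM in total RNA, with very close polysomal replicates (log2 fold change 0.91, standard error 0.14, adjusted p = 0.00407 by edgeR). *RQC2* (0.87), of the ribosome quality control complex, *SLD3* (0.89), which starts DNA replication, and *TEC1* (0.84), a transcription factor of filamentous growth, rose as well.

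Among genes with a mean of at least 50 normalized counts, the annotated mRNAs with the largest decreases were, after *HAC1*, *PEX35*, *BDF2*, *YJR112W-A*, *YOX1* and *RUB1*. *BDF2*, a bromodomain protein that binds acetylated histones, had 129.2, 78.1 and 53.1 CPM in polysomal RNA, against 221.5, 262 and 236 CPM in total RNA. Its polysomal values spread more than its total values and still lay below them (log2 fold change -1.45, standard error 0.22, adjusted p = 0.00394 by edgeR). *YOX1*, a homeodomain repressor of cell cycle genes, had 27.0, 27.2 and 20.3 CPM against 63.8, 67.5 and 68.0 CPM, a steady gap (-1.39, standard error 0.18, adjusted p = 0.00167 by edgeR). *PEX35*, a peroxisomal membrane protein, and *RUB1*, a ubiquitin-like modifier, were at -1.65 and -1.37, and *YJR112W-A* was at -1.42. Outside the rule and again chosen after their values were seen, *DED1*, the RNA helicase that unwinds mRNA leaders for scanning ribosomes, fell to 113 ± 24.9 CPM in polysomal RNA, against 207 ± 8.08 CPM in total RNA (SD, n = 3 each). Its log2 fold change of -0.89 (adjusted p = 0.00935 by edgeR) was called under each alternative, like those of *TKL2* (-1.15), a transketolase, *YHB1* (-1.17), a nitric oxide oxidoreductase, *PET8* (-1.20), the mitochondrial carrier of S-adenosylmethionine, *PMP1* (-1.15), a small subunit of the plasma membrane proton pump, *GLY1*, threonine aldolase, and *UBI4* (-0.70), the polyubiquitin gene.

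Coding length, known for 5484 tested genes, was set against the fold change. Genes with under 300 coding bases (186 genes) had a median log2 fold change of -0.25, with 7 higher and 23 lower (3.76% and 12.4%). Genes of 2400 bases or more (844 genes) had a median of 0.13, with 74 higher and 31 lower (8.77% and 3.67%). Between them the relation was not steady: medians were 0.10 from 300 to under 600 bases, -0.01 from 600 to under 1200 and -0.06 from 1200 to under 2400, and Spearman's rho over all genes was 0.05. Genes are not independent replicates, and rho turned to -0.02 without polysomal replicate 1 and -0.07 without total replicate 1. The short genes were as high as 0.27 in total replicate 1, relative to the mean of the total libraries, and at -0.17 and -0.11 in total replicates 2 and 3. Their median was -0.11 without total replicate 1, and -0.10 among genes with a mean of at least 50 normalized counts.

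Most of the 844 tested genes of 2400 coding bases or more were not called, with 74 higher (8.77%) and 31 lower (3.67%). The 12 longest of the called genes were all higher in polysomal RNA, and they are named after the calls were seen. They included *TOM1* (0.65), a ubiquitin ligase of 9807 coding bases, *TEL1* (0.65) and *MEC1* (0.65), the kinases of the DNA damage checkpoint, *TOR1* (0.73), the kinase of nutrient signalling, *PRP8* (0.62), the core of the spliceosome, and *NUM1* (0.65), which anchors nuclei and mitochondria to the cell cortex. *TOR1* had 187, 189 and 214 CPM in polysomal RNA, against 98.6, 136.5 and 118 CPM in total RNA (standard error 0.15, adjusted p = 0.0137 by edgeR). *TEL1* had 190, 212 and 224.7 CPM against 116, 149 and 132 CPM. Both lost their call without polysomal replicate 3 or total replicate 3, and *TEL1* also without polysomal replicate 2, with an adjusted p of up to 0.0654 for *TOR1* and 0.0720 for *TEL1* by edgeR.

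**Figure D5:**
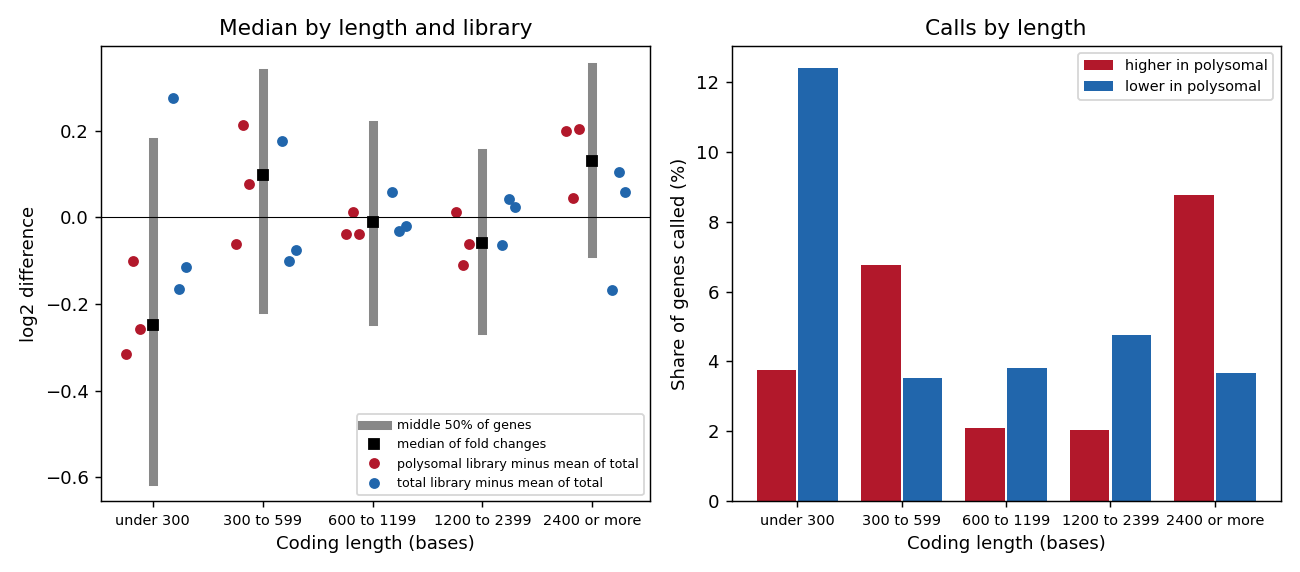
Left, median log2 difference of genes in 5 classes of coding length in *rme1-10* cells: each polysomal library (red) and each total library (blue) minus the mean of the total libraries, the median fold change (black square) and the middle 50% of genes (grey bar). Right, share of genes called higher (red) and lower (blue) in polysomal RNA, at 3.76% and 12.4% under 300 bases and 8.77% and 3.67% from 2400 bases on.

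The WT strain offers the same comparison in 6 other libraries. Each of the 240 genes that were higher in polysomal RNA of *rme1-10* cells was also above 0 in WT, where 50.3% of genes tested in both strains were, and 193 of them (80.4%) were called higher there, beside 12.6% of genes tested in both. Of the 272 genes that fell in *rme1-10* cells and were tested in WT, 271 were below 0 and 226 (83.1%) were called lower, beside 11.5%. None was called in the opposite direction. In WT 721 genes were higher and 662 lower, and of those also tested in *rme1-10* cells the shared genes were 26.8% of the genes that rose in WT and 34.2% of those that fell. Across the 5734 genes tested in both, the log2 fold changes had a Spearman's rho of 0.79. *HAC1* was at -2.25 in WT, *BDF2* at -1.89, *YOX1* at -1.33, *GCN4* at -0.48 and *FKH2* at 0.93. The fraction comparison in WT was fitted after the data were seen. With each WT library left out in turn the shared calls numbered 142 to 186 higher and 157 to 216 lower.

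The ratio of polysomal to total RNA was also tested for a difference between *rme1-10* and WT cells. In simulated data edgeR's test for it recovered 12.1% of differences of 1.5 times and 64.5% of those of 2 times, so small differences would mostly be missed. Of 5857 genes 0 passed in edgeR's test (0%), 130 (2.22%) had an unadjusted p under 0.05, limma-trend called 0, and the DESeq2 Wald test called 3, *MNN4*, *YKL202W* and *NST1*. *MNN4*, a regulator of mannose phosphate on cell wall proteins, had, after scaling over both strains, 398, 312 and 373 CPM in polysomal and 152, 326 and 334 CPM in total RNA of *rme1-10* cells, and 146, 107 and 134 CPM in polysomal and 268, 331 and 298 CPM in total RNA of WT cells. Its log2 fold change was 0.40 in *rme1-10* and -1.20 in WT, a difference of 1.60 (SE 0.30, adjusted p = 0.205 by edgeR). Total replicate 1 of *rme1-10* stood below the other 2 of its group. The difference was called without that library (1.33, adjusted p = 0.00587 by edgeR) and without total replicate 3 of *rme1-10* (1.79, adjusted p = 0.0484 by edgeR). *YKL202W*, which the annotation used here does not hold, had a difference of 1.48 and was called without total replicate 3 of *rme1-10* (1.69). *NST1* had a log2 fold change of 1.34 in *rme1-10* and 0.36 in WT, a difference of 0.98 (SE 0.20, adjusted p = 0.208 by edgeR).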

How the data were processed

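The authors deposited counts, whole numbers of reads per gene without normalization, 1 table per library with 7126 genes and 5 closing entries for reads not assigned to a gene. The closing entries were left out of library sizes and tests; counts on genes were 3.30% to 18.9% of all entries. Per the submitters' notes reads were aligned with TopHat2 to sacCer3. The counting program and strand setting are not given in the sources used here. RefSeq (R64) named 6169 of 7126 genes.

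Counts were TMM-normalized and tested with edgeR 4.0.16 (filterByExpr, glmQLFit, glmQLFTest) in R 4.3.3, polysomal against total, with Benjamini-Hochberg adjustment over all tested genes. Standard errors are the fold change divided by the square root of F. Levels are TMM-normalized CPM. The members and lists were chosen with earlier results of these data known. Named genes were the 12 largest increases and 12 largest decreases (mean of at least 50 normalized counts, no overlap of groups), 11 fixed genes, and in each list the 3 most abundant members and the called extremes; other called list members, and genes said to be chosen after their values were seen, fall outside this rule. The tests were checked on simulated data with changes of 1.5, 2 and 3 times. Between the fractions 47.5%, 82.3% and 100% of these were recovered, and 6.13% of calls were false. For the difference between strains 12.1%, 64.5% and 91.5% were recovered, and 5.04% of calls were false. Alternatives were other scalings and filters, DESeq2 1.42.0, limma-trend 3.58.1, a replicate block, all 18 libraries in one fit, *ACT1* as the only reference, thinned libraries and each library left out. The difference between strains was an interaction term over 12 libraries. Depth was 650859 to 6009889 counts on genes, and figures were drawn with matplotlib 3.10.9. The m6A-seq samples (12) were left aside.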

Additional observations from a re-analysis of the deposited data

How the results depend on the processing

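The counts of all called genes, of glycolysis and early prophase genes lower and of genes that differed between the strains stayed within 1.5 times the values given, with these exceptions. With all 18 libraries in one fit 121 genes were higher and 145 lower, and thinned libraries, chosen after seeing the data, gave 140 and 174. Leaving out a library gave 28 to 357 genes higher, 40 to 374 lower, 1 to 10 glycolysis genes lower and 0 to 8 early prophase genes lower. Early prophase had 1 gene lower with all 18 libraries and 5 with thinned libraries. The replicate block was outside as well, for genes higher and for early prophase genes lower, with its counts given below. The difference between strains held 3 genes by the DESeq2 Wald test and 0 to 2 with an *rme1-10* library left out. For the other gene lists, the DESeq2 Wald test and limma-trend each called 1 translation factor lower in place of 4, limma-trend called 3 stress genes lower in place of 6, and the remaining counts of either tool were within 2 genes of those of edgeR. The cause of these shifts was not tested, apart from the fewer libraries or reads used.

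The replicate numbers did not pair the libraries: the correlation of same-numbered deviations was 0.03, -0.19 and 0.17. With the replicate block 151 genes were higher, 183 lower, 9 glycolysis genes lower and 3 early prophase genes lower.

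Some uncalled genes near 0 changed sign when a library was left out: *IME1* (-0.0309 to 0.17), *SLZ1* (-0.15 to 0.051), *PHO92* (-0.0189 to 0.129), *NDT80* (-0.40 to 0.15) and *ACT1* (-0.0629 to 0.0044). The median of short genes was -0.10 at 50 normalized counts or more and -0.32 to -0.11 with a library left out, and rho was -0.0728 to 0.187. Over single genes and alternatives, 454 pairs lost a call and 3, all for *PGK1*, gained one. Low counts limit the short and rare RNAs, and alternative fits could not be made for genes a filter removed.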
